A study of Mus musculus with 6 samples.

Results

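The BCL2 family genes examined here were 10 genes that control survival at the mitochondrion: Bcl2, Bcl2l1, Mcl1, Bcl2a1a, Bcl2a1b, Bcl2a1d, Bcl2l11, Bbc3, Pmaip1 and Bax. They were picked by symbol from the 47729 genes of the count tables, and 10 of 10 were found. The 3 near-identical Bcl2a1 copies were summed, which left 8 measures, and all 8 passed the filter on low counts. PolyA-enriched, strand-specific RNA-seq had been done on lung endothelial cells (ECs) of male mice, in 3 wild-type (WT) libraries and 3 libraries of mice lacking leene (KO). Leene is the mouse counterpart of the human long noncoding RNA LEENE (LINC00520). The KO mice, kept on a C57BL6 background, lack the matching genomic region in all tissues, since the deletion is global and not limited to ECs. Both groups were 14 weeks old on chow and received angiotensin II (AngII, a vasoconstrictor peptide that raises blood pressure) at 1000 ng/kg/min from an osmotic pump for 2 weeks, so no library came from an uninfused mouse. The labels call the cells CD31-enriched and state that cells of 3 mice per group were pooled, whereas the study's methods describe magnetic sorting for CD144. Whether each library came from its own mouse is therefore not settled, and p-values measure the spread between these libraries, which may be technical. No leene gene was among the counted genes, so the genotypes rest on the labels alone.

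BCL2 family proteins decide whether a cell releases cytochrome c from its mitochondria and activates caspases. The pro-survival proteins (Bcl-2, Bcl-xL from Bcl2l1, Mcl-1 and A1 from the Bcl2a1 genes) bind and hold in check the pore former Bax and the BH3-only proteins. The BH3-only proteins are the sensors of the family: Bim (Bcl2l11), Puma (Bbc3) and Noxa (Pmaip1) engage the pro-survival proteins, Noxa with a preference for Mcl-1. ECs depend on this balance for their survival under growth factor withdrawal and inflammatory stress.

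The Bcl2a1 sequences are shown because they set what the counts of these 3 genes can mean. The 3 coding regions are 519 bases long in the GENCODE M21 transcripts (build GRCm38) and differed at 12 positions. Identity was 97.88% between Bcl2a1a and Bcl2a1b, 98.65% between Bcl2a1a and Bcl2a1d and 98.84% between Bcl2a1b and Bcl2a1d. Coding bases 1 to 50 held the most differences, and capitals mark the bases that differ between copies (Bcl2a1a at chr9:88957051-88957100 on the plus strand, Bcl2a1b at chr9:89199360-89199409 on the plus strand, Bcl2a1d at chr9:88731670-88731719 on the minus strand).
Bcl2a1a: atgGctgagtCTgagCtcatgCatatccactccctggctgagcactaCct
Bcl2a1b: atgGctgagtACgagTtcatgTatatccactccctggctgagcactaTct
Bcl2a1d: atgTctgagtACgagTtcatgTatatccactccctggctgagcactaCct
Counted from the start codon, Bcl2a1d differed from Bcl2a1b by the substitutions G4T, T48C, A94C, G312A, C381G and T490A (the Bcl2a1b base first). In contrast, coding bases 95 to 144 had the same sequence in all 3 copies.
Bcl2a1a, Bcl2a1b and Bcl2a1d: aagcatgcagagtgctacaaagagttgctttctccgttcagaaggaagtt
Of the 470 stretches of 50 bases in the coding region, the read length here, 201 (42.8%) were identical in all 3 copies. Over the whole transcript, 69.0% of the 50-base stretches of Bcl2a1a, 57.6% of those of Bcl2a1b and 79.5% of those of Bcl2a1d also occurred in another Bcl2a1 copy. A read from such a stretch aligns to several places and was not counted, so the sum of the copies is a lower bound on their reads and the split between copies is uncertain. In addition, 49.1% of the exon bases of Bcl2a1b overlap Gm29094 on the same strand, and reads there were dropped as well. For Mcl1, Bcl2l1, Bbc3 and Pmaip1 the shared portion was 0.0%, for Bcl2l11 0.2%, for Bcl2 6.7%, and for Bax 13.8%, the latter with Gm45808.

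The 6 libraries held 24464324 to 35184063 counts, of which 37.4% to 54.5% came from mitochondrial genes. EC markers were present in every library, with the 15 genes summing to 2320 to 4180 CPM (the count as a share of the library's size, scaled by edgeR's TMM method) in WT and 2650 to 4230 in KO, and none was at 0. Alveolar type II cell markers were also present, at 5430 to 50700 CPM over 8 genes in WT and 39300 to 48600 in KO. B cell markers were separated by genotype, at 97.5 to 169 CPM in WT and 361 to 444 in KO, with 14 of 14 tested genes higher in KO and 3 past the threshold, and none at 0 in all libraries. Macrophage and monocyte markers ranged from 135 to 372 CPM in WT and from 198 to 448 in KO. Neutrophil markers ranged from 43.5 to 120 CPM and from 80.3 to 82.8 CPM, and T cell markers from 8.42 to 16.4 and from 18.4 to 27.5 CPM, respectively. Mesenchyme markers summed to 493 to 903 CPM in WT and 605 to 847 in KO, and erythroid and platelet markers to 89.4 to 143 and 134 to 162 CPM. The share of each cell type in the members' values was not tested.

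To describe how much of each family member these cells carried, counts were divided by exon length and scaled library size (CPM per kilobase of exon, or RPKM). Of the scales used here, only this one takes gene length into account. The length joins all annotated exons, 4586 bases for Bcl2l1 and 3418 for Mcl1. Their longest coding transcripts had 2568 and 3418 bases, so genes such as Bcl2l1 may be understated relative to Mcl1. Mcl1 had the highest level, 82.96 ± 6.584 RPKM in WT and 58.29 ± 5.849 in KO (SD, n = 3 each), and each of its 6 libraries lay above every library of every other family gene. Bcl2l2, which encodes the pro-survival protein Bcl-w and is not among the 10 genes, came next at 29.89 ± 8.832 and 30.28 ± 4.688 RPKM. Reads over the 13.3% of its exon bases that overlap Gm20521 were not counted. Bax followed at 24.78 ± 2.98 and 21.13 ± 0.5313, Bcl2l1 at 19.36 ± 1.71 and 13.49 ± 0.4046, and Pmaip1 at 18.65 ± 6.286 and 20.12 ± 4.316 RPKM. From Bcl2l2 to Bnip3l, a mitophagy receptor at 17.75 ± 2 RPKM in WT, each gene overlapped its neighbour in the order over the 6 libraries, so their order is not resolved. Bak1, which encodes the other main pore former, lay below all of these at 10.99 ± 0.7943 and 9.037 ± 0.2409 RPKM. The remaining members formed a low group in which neighbours overlapped. Its values in WT and KO were 2.956 ± 1.255 and 2.568 ± 1.132 RPKM for summed Bcl2a1 and 2.788 ± 0.2252 and 2.497 ± 0.2213 for Bbc3. The Bcl2a1 values are lower bounds, since reads from stretches shared between copies were not counted but the full exon length was used. The place of Bcl2a1 in this low group is therefore not settled. Bcl2 had 2.334 ± 0.385 and 2.134 ± 0.3058 RPKM, and Bcl2l11 had 1.668 ± 0.2554 and 2.1 ± 0.3113.

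**Figure D1:**
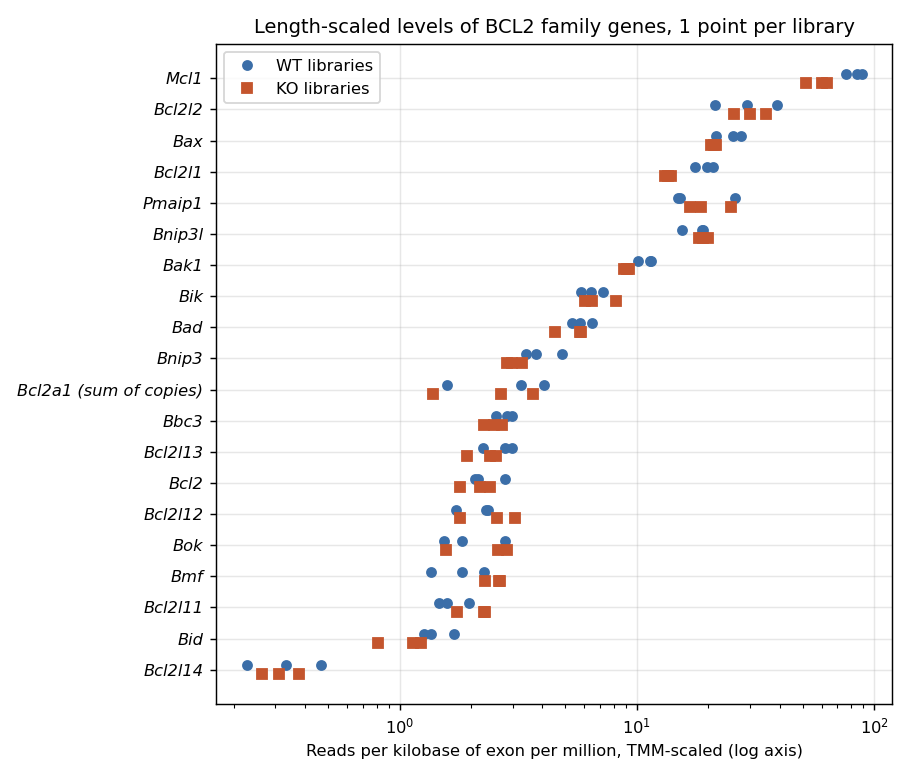
RPKM of each tested family gene (log axis) in the 3 WT (circles) and 3 KO (squares) libraries, 1 point per library, ordered by the WT mean. Mcl1 stands apart at 51.79 to 88.57 RPKM in all 6 libraries, while Bcl2, Bcl2l11, Bbc3 and the Bcl2a1 sum lie between 1.38 and 4.044. The Bcl2a1 sum is a lower bound, since reads shared between copies were not counted.

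Comparing KO with WT, the data show lower mean levels of the pro-survival genes Mcl1 and Bcl2l1, by 29.7% and 30.3%, and smaller or no separable differences in the other members. In edgeR's quasi-likelihood test, 0 of the 8 measures had an adjusted p under 0.05, where 0.109% of the 14623 genes tested did (16 genes, 0.0752% lower and 0.0342% higher in KO). At an unadjusted p under 0.05, 2 of 8 passed, Mcl1 and Bcl2l1, against 10.3% of all genes, and both were lower in KO, against 4.68% of all genes (5.62% were higher). With DESeq2, 1 of 8, Bcl2l1, had an adjusted p under 0.05, against 1.21% of 15469 genes in either direction and 0.64% lower in KO. The WT and KO libraries did not overlap for 2 of 8, the same 2 genes with KO below, against 9.2% of all genes with KO below, 8.6% with KO above and 17.8% in either direction. In bulk samples such as these, fewer cells of a type and less RNA per cell cannot be told apart.

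Mcl1, an essential and short-lived pro-survival protein, is encoded at chr3:95658788-95663176 on the plus strand. Gene coordinates are from the Ensembl annotation used for counting (GRCm38). Its level was 289.1, 258.8 and 302.7 CPM in WT and 215.7, 177 and 205 in KO. All 3 KO libraries were below all 3 WT libraries, and the gap between the groups was larger than the SD within either one. The mean was 283.5 ± 22.5 CPM in WT and 199.2 ± 19.99 in KO (SD, n = 3). The log2 fold change was -0.51 (SE 0.164, 95% interval -0.89 to -0.13), with an edgeR adjusted p of 0.385 (unadjusted 0.0152, rank 579 of 14623), so that the difference did not pass the test across all genes. DESeq2 gave -0.54 with an adjusted p of 0.0939. A two-sided exact permutation test gave p = 0.1, the smallest that 3 against 3 libraries allow.

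Bcl2l1 lies at chr2:152780668-152831728 on the minus strand. Its long splice form encodes the pro-survival Bcl-xL and its short form the pro-death Bcl-xS, and a count per gene pools them. WT libraries had 80.31, 90.2 and 95.8 CPM and KO libraries had 63.74, 60.03 and 61.88. The KO libraries were all lower and lay close together. The mean was 88.77 ± 7.842 CPM in WT and 61.89 ± 1.856 in KO (SD, n = 3). The log2 fold change was -0.52 (SE 0.126, 95% interval -0.81 to -0.23), with an edgeR adjusted p of 0.283 (unadjusted 0.00358, rank 184). DESeq2, the tool named in the study's methods, gave -0.55 (SE 0.157) with an adjusted p of 0.0411, so the call for Bcl2l1 depends on the tool. The exact permutation p was 0.1. Leaving out WT replicate 2 brought the edgeR adjusted p for Bcl2l1 to 0.061 and that for Mcl1 to 0.0745, the lowest over the single-library omissions, and the log2 fold changes over those omissions ran from -0.59 to -0.48 for Bcl2l1 and from -0.61 to -0.46 for Mcl1. Summed B cell and T cell markers were higher in all 3 KO libraries, opposite in direction to Mcl1 and Bcl2l1. Of the 10 mesenchyme markers, 5 had log2 fold changes above 0 and 5 below (median 0.05). Only 2 of them were lower in all 3 KO libraries, the smooth muscle genes Tagln and Acta2, named here after their values were seen. Tagln had a log2 fold change of -1.06 (edgeR adjusted p = 0.14, DESeq2 adjusted p = 0.000497). Acta2 had one of -0.53 (edgeR adjusted p = 0.363, DESeq2 adjusted p = 0.217). Myh11, a further smooth muscle gene, overlapped between groups (-0.34). The part of these cells in either result was not tested.

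Bcl2, the founding pro-survival gene (chr1:106538178-106714274, minus strand), had 19.02, 19.67 and 25.43 CPM in WT and 20.07, 16.52 and 22.04 in KO. The groups overlapped, with the highest value in WT and the lowest in KO. The mean was 21.37 ± 3.525 CPM in WT and 19.54 ± 2.8 in KO, a log2 fold change of -0.13 (SE 0.171, 95% interval -0.52 to 0.27, edgeR adjusted p = 0.794, exact permutation p = 0.6). A decrease as large as that estimated for Mcl1 lies within this interval.

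The Bcl2a1 copies encode A1, a pro-survival protein best known from blood cells, and lie on chromosome 9 at 88956900 to 88962419 (Bcl2a1a, plus), 89199209 to 89207827 (Bcl2a1b, plus) and 88723285 to 88731914 (Bcl2a1d, minus). Summing the copies gave 54, 91 and 72 reads per WT library against 70, 61 and 33 per KO library, or 1.322, 2.672 and 3.371 CPM against 3.009, 2.244 and 1.138. The groups overlapped over nearly their whole range, and the spread within each group was wider than the distance between the means. The log2 fold change was -0.20 with a wide interval of -1.27 to 0.88 (SE 0.462, edgeR adjusted p = 0.89, exact permutation p = 0.6), and it turned positive without WT replicate 3 (0.08) or without KO replicate 3 (0.11). Taken one by one, log2 fold changes were -0.19 for Bcl2a1a, -0.12 for Bcl2a1b and -0.28 for Bcl2a1d, with edgeR adjusted p of 0.914, 0.95 and 0.9. Single copies had as few as 5 counts in a library (Bcl2a1d, KO replicate 3). Summed macrophage and monocyte markers were 135.4, 371.6 and 317.6 CPM in WT and 448.1, 198.3 and 210 in KO, and summed neutrophil markers were 43.52, 120.5 and 64.66 CPM and 80.25, 81.66 and 82.82. WT replicate 1 was thus lowest in WT for Bcl2a1 and for both marker sums, and KO replicate 1 was highest in KO for Bcl2a1 and for the macrophage sum. Other libraries differed: Bcl2a1 was highest in WT replicate 3, but both sums were highest in WT replicate 2. In KO, the neutrophil sum rose from replicate 1 to replicate 3 where Bcl2a1 fell. The part of these cells in the Bcl2a1 values was not tested.

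Among the pro-death members, Bax (chr7:45461695-45466898, minus strand) had 22.1, 18.7 and 23.79 CPM in WT and 18.4, 17.88 and 18.8 in KO. The KO libraries were low and close together, and WT replicate 2 fell among them. The log2 fold change was -0.23 (SE 0.134, 95% interval -0.54 to 0.08, edgeR adjusted p = 0.577, exact permutation p = 0.2). Bcl2l11, the gene of Bim (chr2:128126038-128162547, plus strand), had 12.68, 15.71 and 11.8 CPM in WT and 18.4, 13.98 and 18.21 in KO. It had the highest positive log2 fold change of the 8 measures, 0.33 (SE 0.174, 95% interval -0.07 to 0.73, edgeR adjusted p = 0.544, exact permutation p = 0.2), but KO replicate 2 lay below WT replicate 2, so that the groups overlapped.

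Bbc3, the gene of Puma and a p53 target (chr7:16309616-16318205, plus strand), had 5.704, 5.99 and 5.104 CPM in WT and 5.029, 4.561 and 5.45 in KO. The ranges overlapped, with a log2 fold change of -0.16 (SE 0.172, 95% interval -0.56 to 0.24, edgeR adjusted p = 0.742, exact permutation p = 0.2). Pmaip1, the gene of Noxa on chromosome 18, was the most variable of the abundant members, at 40.1, 39.4 and 68.55 CPM in WT and 66.07, 44.18 and 49.46 in KO. WT replicate 3 and KO replicate 1, the libraries with the highest mitochondrial portion (54.5% and 46.2%), were the highest of their groups. These libraries also had the highest summed EC markers of their groups (4176 and 4226 CPM). The part of the mitochondrial portion or of the EC content in the values was not tested. The log2 fold change of Pmaip1 was 0.11 (SE 0.255, 95% interval -0.48 to 0.70, edgeR adjusted p = 0.887, exact permutation p = 0.6). It took values between -0.10 and 0.40 when single libraries were left out, and its direction is not resolved.

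**Figure D2:**
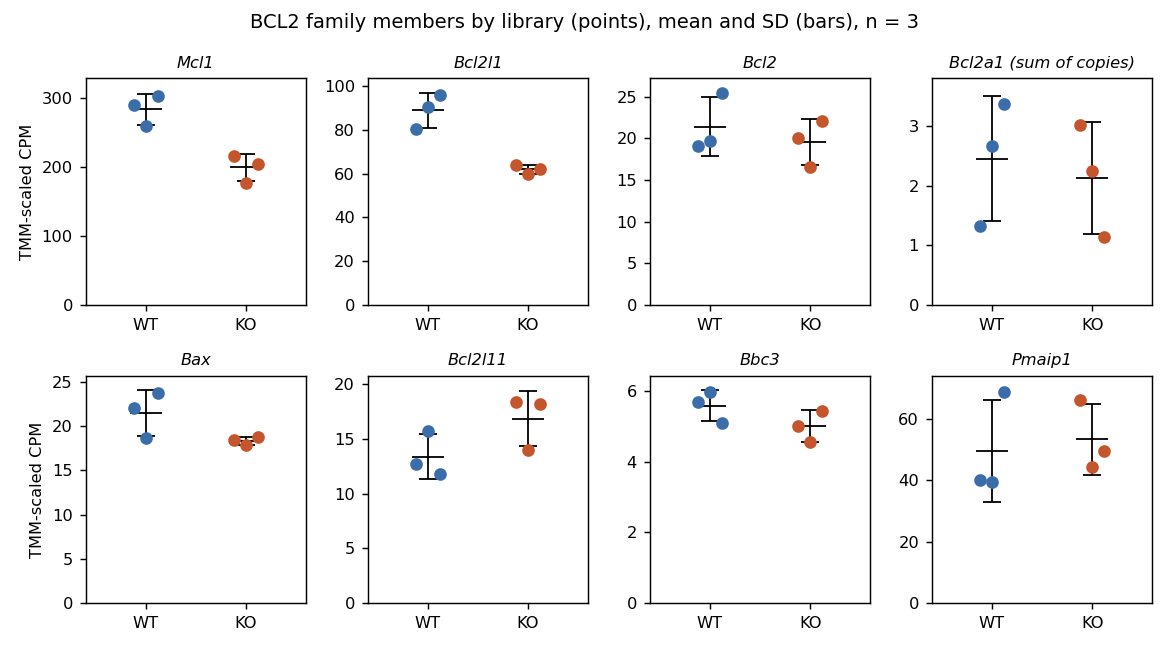
TMM-scaled CPM of the 8 measures in each of the 3 WT and 3 KO libraries (points), with the mean (wide bar) and SD (error bar), each panel starting at 0. The KO points lie wholly below the WT points for Mcl1 (177 to 215.7 against 258.8 to 302.7 CPM) and Bcl2l1 (60.03 to 63.74 against 80.31 to 95.8 CPM), and the groups overlap in the other 6 panels.

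All 4 pro-survival measures had negative log2 fold changes (median -0.35). Of the 4 pro-death measures 2 were negative and 2 positive (median -0.02). The median over all genes tested was 0.03, and of these 14623 genes 6712 were negative and 7911 positive. Only Mcl1 and Bcl2l1 among the pro-survival and pro-death measures passed even an unadjusted threshold. The signs for Bcl2 (interval -0.52 to 0.27) and the Bcl2a1 sum are not resolved. The latter was positive without WT replicate 3 (0.08) or without KO replicate 3 (0.11). Bcl2l2, a pro-survival gene outside these measures, had a log2 fold change of 0.02, or -0.137 by total counts.

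The balance between pro-survival and pro-death transcripts was then described as ratios of raw counts within a library, which do not depend on scaling between libraries. The Mcl1 to Bax ratio was 13.1, 13.8 and 12.7 in WT and 11.7, 9.9 and 10.9 in KO. The Bcl2l1 to Bax ratio was 3.63, 4.82 and 4.03 in WT and 3.46, 3.36 and 3.29 in KO. Both ratios were lower in all KO libraries than in any WT library, and 2.06% of all genes had a ratio to Bax with that property. Mcl1 and Bcl2l1 were themselves lower in every KO library, so ratios with either on top are not a separate result. For Bcl2l1 to Bax, WT replicate 1 (3.63) came close to KO replicate 1 (3.46). The Bcl2 to Bax ratio, in contrast, overlapped at 0.994 ± 0.116 in WT and 1.06 ± 0.127 in KO.

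Relative to Bcl2l11, Mcl1 counts were 22.8, 16.5 and 25.7 to 1 in WT and 11.7, 12.7 and 11.3 to 1 in KO, and Bcl2l1 counts were 6.33, 5.74 and 8.12 to 1 and 3.46, 4.29 and 3.4 to 1. The Bcl2 to Bcl2l11 ratio was 1.64 ± 0.466 in WT and 1.16 ± 0.0622 in KO. All 3 ratios were lower in every KO library, but so were those of 17% of all genes to Bcl2l11. The Mcl1 to Pmaip1 ratio, the pair in which Noxa meets its preferred partner, was 7.21, 6.57 and 4.42 in WT and 3.27, 4.01 and 4.14 in KO. WT replicate 3 came close to KO replicate 3, and 2.98% of all genes had a ratio to Pmaip1 that was lower in every KO library. The proportion of Bcl2l1 to Mcl1 overlapped between groups, with 0.314 ± 0.0355 Bcl2l1 counts per Mcl1 count in WT and 0.312 ± 0.0236 in KO. The proportion of Bcl2 to Mcl1 was 0.0658, 0.076 and 0.084 Bcl2 counts per Mcl1 count in WT and 0.093, 0.0933 and 0.108 in KO, higher in every KO library. How many of all genes had a ratio to Mcl1 with that property was not counted. Mcl1 itself was lower in every KO library, whereas Bcl2 overlapped between groups.

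**Figure D3:**
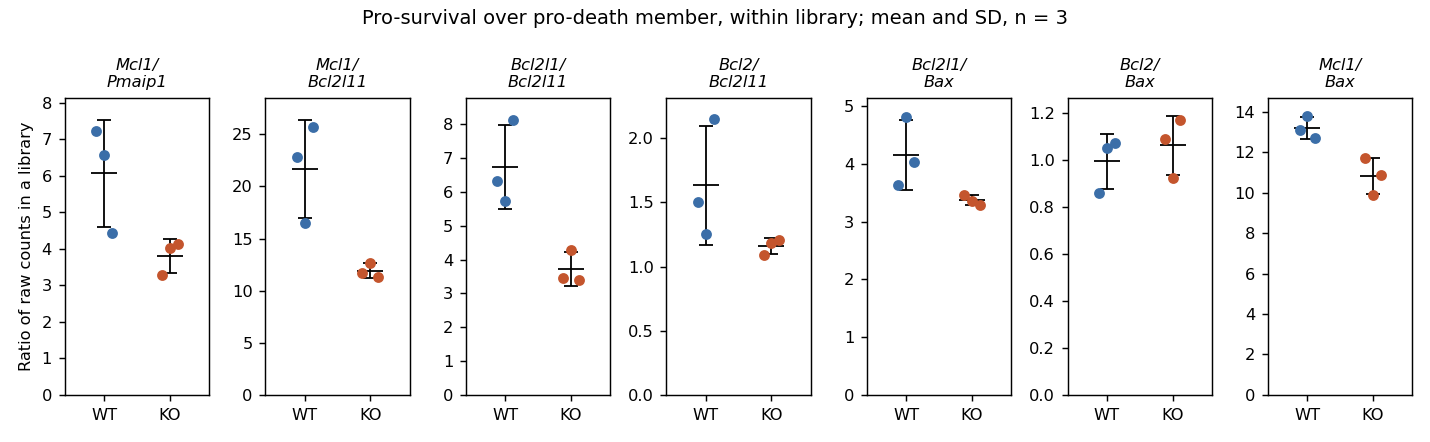
Ratio of raw counts of a pro-survival to a pro-death member in each WT and KO library (points), with mean and SD (n = 3), each panel starting at 0. KO libraries lie below all WT libraries in every panel but Bcl2 over Bax, with means of 13.2 and 10.8 for Mcl1 over Bax and 6.73 and 3.72 for Bcl2l1 over Bcl2l11.

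Within the pro-survival pool (Mcl1, Bcl2l2, Bcl2l1, Bcl2 and the Bcl2a1 sum, in RPKM), Mcl1 made up 62.69%, 61.95% and 57.02% in WT and 53.53%, 54.47% and 55.88% in KO. The KO shares were all lower. Bcl2l2 made up 21.62%, 17.54% and 25.14% in WT and 29.74%, 27.04% and 28.02% in KO, so its share was higher in every KO library although its own level did not separate the groups. Bcl2, a small part of the pool, made up 1.54%, 1.76% and 1.79% in WT and 1.86%, 1.9% and 2.24% in KO, higher in every KO library as well. Its own level overlapped between groups, with a log2 fold change of -0.13. The shares of Bcl2l1 (14.17% ± 1.68 and 12.71% ± 1) and of the Bcl2a1 sum (2.14% ± 0.84 and 2.4% ± 0.97) overlapped between groups. The Bcl2a1 share rests on counts that leave out reads shared between its copies, so its true size is not known. These shares are descriptions without a test, and a lower share of one gene raises the others.

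The RefSeq promoter windows of Mcl1 and Bcl2l1 (build GRCm38.p6, the 250 bases before the start) are shown because these genes were the pair that separated the groups. The Mcl1 window (chr3:95658471-95658720, plus strand) carries in capitals the ETS motif CCGGAAG, 63 bases before the start, and a GC box, GGGCGG read on the other strand, 20 bases before it.
Mcl1: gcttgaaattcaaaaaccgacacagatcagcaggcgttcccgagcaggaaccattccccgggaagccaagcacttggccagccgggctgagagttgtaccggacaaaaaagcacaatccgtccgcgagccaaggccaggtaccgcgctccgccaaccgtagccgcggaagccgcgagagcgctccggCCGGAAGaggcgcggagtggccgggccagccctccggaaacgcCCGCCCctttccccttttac
The Bcl2l1 window lies at chr2:152831729-152831978 on the minus strand and has no match, so it has no capitals.
Bcl2l1: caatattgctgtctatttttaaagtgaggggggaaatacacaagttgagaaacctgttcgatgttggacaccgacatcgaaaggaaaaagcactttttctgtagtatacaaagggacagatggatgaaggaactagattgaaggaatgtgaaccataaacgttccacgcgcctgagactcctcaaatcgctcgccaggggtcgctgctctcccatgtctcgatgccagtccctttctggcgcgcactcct
Motifs were searched on both strands, and the matches in these windows do not overlap. Among 32851 promoters of the same length, 6.9% held CCGGAAG and 32.7% GGGCGG. The other motifs searched were the heat shock pairs TTCNNGAA (7.2%) and GAANNTTC (6.7%), the cAMP response element TGACGTCA (1.5%), the kappaB motif (0.4%), the GAS motif of STAT factors TTCNNNGAA (7.0%) and the AP-1 motif TGAGTCA (4.5%), and none of these letters occurred in either window. Bcl2l1 has other annotated starts, inside its exons, whose windows are not shown.

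To place the 10 genes in their family, 16 further BCL2 family genes were examined. Of these, 12 passed the filter on low counts and 0 had an edgeR adjusted p under 0.05, where 0.109% of all genes tested did. Bak1 had 27.47, 27.66 and 24.26 CPM in WT and 22.31, 21.15 and 21.8 in KO. All KO libraries were lower, with a log2 fold change of -0.28 (SE 0.118, edgeR adjusted p = 0.477, unadjusted 0.0438). Bmf, a BH3-only gene whose product binds the cytoskeleton, had 9.669, 11.92 and 7.117 CPM in WT and 12.04, 13.87 and 13.8 in KO. The KO values were all higher, by a narrow margin over WT replicate 2, with a log2 fold change of 0.46 (SE 0.203, edgeR adjusted p = 0.493).

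Bid, which links death receptors to mitochondria (log2 fold change -0.44, edgeR adjusted p = 0.547), and Bnip3, a hypoxia-inducible mitophagy receptor (-0.40, adjusted p = 0.498), were also below WT in every KO library. Over all genes tested, KO lay wholly below WT for 9.2% and wholly above for 8.6%. The other tested family genes overlapped between groups. Their log2 fold changes were 0.02 for Bcl2l2, 0.19 for Bok, -0.12 for Bad, 0.09 for Bik, 0.22 for Bcl2l12, -0.22 for Bcl2l13, -0.10 for Bcl2l14 and 0.11 for Bnip3l, with edgeR adjusted p from 0.644 to 0.983. The signs for Bcl2l2, Bik and Bnip3l were negative when libraries were scaled by total counts alone. Hrk was at 3, 0 and 0 reads in WT against 8, 6 and 6 in KO, too few for the test, and Bcl2l10, Bcl2a1c and Bcl2l15 had at most 4, 7 and 1 counts in any library.

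**Figure D4:**
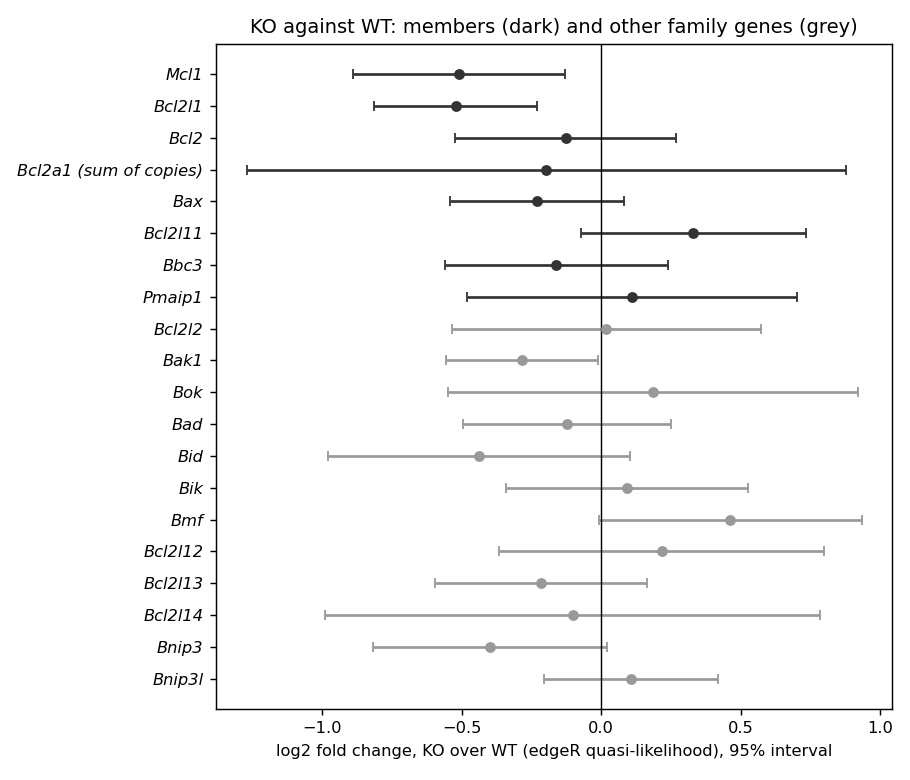
Log2 fold change of KO over WT with its 95% interval (edgeR quasi-likelihood test) for the 8 measures (dark) and the 12 other tested family genes (grey). Only the intervals of Mcl1 (-0.89 to -0.13), Bcl2l1 (-0.81 to -0.23) and Bak1 (-0.56 to -0.01) leave out 0, and none of the 20 passed the adjusted threshold.

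Downstream of the family, 19 of 19 genes of the apoptosome, the caspases and the inhibitor of apoptosis proteins were tested. None had an edgeR adjusted p under 0.05 or a DESeq2 one, and 1 had an unadjusted edgeR p under 0.05 (10.3% of all genes did), with 7 log2 fold changes above 0 and 12 below (median -0.03). That gene was the executioner caspase Casp6, at 11.51, 11.89 and 13.35 CPM in WT and 14.7, 15.41 and 16.73 in KO, higher in every KO library (log2 fold change 0.35, SE 0.134, edgeR adjusted p = 0.455). The mitotic survivin gene Birc5 had a log2 fold change of -0.85 (SE 0.467, edgeR adjusted p = 0.556), which was -0.37 without WT replicate 3.

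Of the death receptor pathway, 11 of 12 genes were tested and none had an adjusted p under 0.05 with edgeR or DESeq2, with 6 above 0 and 5 below (median 0.01). The lowest unadjusted edgeR p, 0.0221, belonged to Tnfsf10, the gene of the death ligand TRAIL. It had 50.21, 61.78 and 86.53 CPM in WT and 126.8, 82.14 and 111.9 in KO. KO replicate 2 fell below WT replicate 3, and the log2 fold change was 0.69 (SE 0.243, edgeR adjusted p = 0.418). Cflar, which blocks caspase-8, had a log2 fold change of -0.33 (adjusted p = 0.59) and the TNF receptor gene Tnfrsf1a one of 0.26 (adjusted p = 0.633).

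Of 20 transcription factors known to act on members of the family, 0 had an adjusted p under 0.05 with edgeR or DESeq2 and 2 an unadjusted edgeR p under 0.05, where 10.3% of all genes had one. Their log2 fold changes were below 0 for 19 and above 0 for 1 (median -0.16, against 0.03 over all genes). Of the 14623 genes tested, 6712 were below 0 and 7911 above. A link between these factors and the members' values was not tested. Stat3, an activator of Mcl1 and Bcl2l1, had 123.8, 123 and 114 CPM in WT and 91.04, 89.57 and 91.85 in KO. Every KO library was lower and the KO values lay close together, with a log2 fold change of -0.41 (SE 0.124, edgeR adjusted p = 0.366). Myc had a log2 fold change of -0.89 (SE 0.339, adjusted p = 0.459) at 2.226 ± 0.6827 CPM in KO against 4.079 ± 1.272 in WT. Foxo3, an activator of Bcl2l11 and Bbc3, had one of -0.33 (adjusted p = 0.493), with 45.48 ± 6.979 CPM in WT and 36.14 ± 1.669 in KO.

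Of 19 tested kinases, turnover factors and other genes whose products act on the family or its pathway, 1 passed the edgeR threshold, where 0.109% of all genes did. Hspb1, which encodes a small heat shock protein that restrains apoptosis after cytochrome c release, had 27.73, 27.66 and 27.3 CPM in WT and 11.39, 7.872 and 9.485 in KO. It fell by 1.52 on the log2 scale (SE 0.16, edgeR adjusted p = 0.0276, DESeq2 adjusted p = 1.09e-10). The edgeR adjusted p was above 0.05, up to 0.232, when WT replicate 3 or any KO library was left out. Log2 fold changes ran from -1.69 to -1.43 over all single omissions. The other genes of the list had 6 log2 fold changes above 0 and 12 below.

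Finally, the genes whose log2 CPM was most like each member's over the 6 libraries were found by Pearson's r among 9529 genes with a mean of at least 5 CPM (9530 for the Bcl2a1 sum, which is itself under that level). The points share 2 groups of 3 libraries and their scaling, and r is given as a description. The closest were Stk40 (r = 0.9954), Cebpg (0.9906) and Trp53i11 (0.9903) for Mcl1, and Prkx (0.9952), Cdkn2aipnl (0.986) and Irf2bp2 (0.9845) for Bcl2l1. For Bax they were Crip2 (0.9931), Mapk11 (0.9925) and Rangap1 (0.989), and for Bcl2 Reep1 (0.9936), Mis18a (0.9895) and Katnbl1 (0.9813). Pmaip1 was followed by Rps10 (0.9929), Pola1 (0.99) and Rnf115 (0.9874), and Bbc3 by Vcpip1 (0.9932), Fam107b (0.9912) and Frs2 (0.9885). The Bcl2a1 sum was followed by Msrb1 (0.9873), Sh2d1b1 (0.9871) and Ms4a8a (0.9813). Bcl2l11 had the fewest close matches, with 3 genes above 0.95, namely Iffo1 (0.9686), Slc35e2 (0.9535) and Timp2 (0.9517), while Mcl1 had 105, Bax 72 and Bcl2l1 51.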

How the data were processed

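PolyA-enriched, strand-specific RNA-seq of lung ECs was available for 3 WT and 3 KO libraries, grouped by their labels. The authors deposited 1 table of whole-number counts per gene and library. Per the file headers these came from featureCounts 2.0.0 over exons of Ensembl release 84 (GRCm38), reverse-stranded, each read counted once. The submitters' processing notes name STAR 2.5.4b, Subread 2.0.0 and bcl2fastq 2.18. Multi-mapping and ambiguous reads were not counted. Symbols came from GENCODE M21 and were found for 47224 of 47729 genes. TPM values from the study were not used here.

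The 3 Bcl2a1 copies were summed. Tests were run in R 4.3.3 with edgeR 4.0.16 (filterByExpr, TMM, glmQLFit, glmQLFTest, genotype as the only term) and Benjamini-Hochberg adjustment over 14623 genes, with a threshold of 0.05. The study used DESeq2 and it is an alternative here (version 1.42.0), as are limma-voom (limma 3.58.1), other scalings, other filters, the replicate block and the omission of each library. The fits were tested on simulated data first. Between 24464324 and 35184063 counts per library put members with under about 100 counts, the Bcl2a1 copies, at low precision. Exact permutation tests were two-sided over 20 arrangements, on log2 CPM with a prior count of 2.

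The members and gene lists were chosen with earlier results of these data known. Named were every member, every tested gene of the other BCL2 family lists, from each pathway list the genes past the threshold or else the 3 with the lowest unadjusted p, and the 3 genes most like each member. Of the listed symbols, Tctp and Faim3 are older names and were not matched. The values of 1 gene that this rule names are not reported here. Protein sequences were not used here.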

Additional observations from a re-analysis of the deposited data

How the results depend on the processing

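Of 127 member values under alternative settings, 120 kept their direction and side of the threshold, 1 newly passed it and 6 changed sign. The one that passed was Bcl2l1 with DESeq2 (log2 fold change -0.55, adjusted p = 0.0411), which made the number of members called 1 in place of 0, and no omission of a library with edgeR called a member. Mcl1 stayed between -0.68 and -0.46 and Bcl2l1 between -0.67 and -0.48 under all settings run. Sign changes were limited to Pmaip1 (-0.018 by total counts, -0.10 to 0.40 over single omissions) and the Bcl2a1 sum (-0.54 to 0.11 over single omissions). Among 22 other named genes, sign changes occurred in 4. Bcl2l2 was -0.010 by RLE scaling, -0.137 by total counts, -0.006 without mitochondrial genes in the library size, -0.014 with DESeq2 and -0.21 to 0.24 over single omissions. Bik was -0.046 and Bnip3l -0.068 by total counts, and over single omissions Bik ran from -0.05 to 0.16, Bnip3l from -0.021 to 0.15 and Bcl2l14 from -0.34 to 0.17. Total counts moved the median log2 fold change of all genes from 0.03 to -0.13.

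The 16 genes called became 26 by RLE scaling, 123 by total counts, 187 with DESeq2, 26 with limma-voom and 152 without a filter on low counts. Over single omissions they ran from 0 to 789, with 789 without WT replicate 2 and 0 without any 1 KO library, where edgeR gave 986 to 1112 genes an unadjusted p under 0.05. Non-overlapping members ran from 2 to 4 over single omissions, with 4 without WT replicate 2, WT replicate 3 or KO replicate 3, where 41.4%, 27.2% and 27.6% of all genes did not overlap either (17.8% with all libraries). Calls in the kinase and turnover list ran from 0 to 1. With a replicate block edgeR called 0 genes (1774 at an unadjusted p under 0.05), no member and 0 in that list (Hspb1 -1.54, adjusted p = 0.125). The numbers mark no shared animal, litter or day in the labels, same-numbered libraries deviated with correlations of -0.08, 0.22 and 0.01, so no pairing was taken, and WT replicate 1 correlated best with KO replicate 3 (0.19), not with its own number. The cause of these shifts was not tested.

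With 3 libraries per group, permutation p-values cannot go below 0.1, and the Bcl2a1 copies rest on 5 to 43 counts per copy and library.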
